A study of Mus musculus with 6 samples.

Results

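Txnip, 4 related alpha-arrestin genes (Arrdc1, Arrdc2, Arrdc3 and Arrdc4) and 3 glucose-sensing Mlx factors (Mlx, Mlxip and Mlxipl) were followed in mouse tumour cells, 8 genes of 19590 named in the deposited table. They were taken by symbol. Txnip was chosen by its TPM values in these libraries, having the deepest fall among well expressed genes, and the other 7 follow from it by family and pathway. The values of all 8 members in this comparison are therefore given as a description, with no p-value, and the members that pass the fit over all genes are only counted beside the share of all genes that pass it. The cells were of the Lewis lung carcinoma line, which derives from a mouse lung tumour, grown in DMEM with fetal bovine serum. Of the 6 libraries, 3 came from cells with a scrambled short hairpin RNA (shRNA; labelled Urod wildtype) and 3 from cells with an shRNA against Urod (labelled Urod knockdown), an enzyme of heme synthesis. Both hairpins were delivered by lentivirus, and both groups received 2 ug/mL doxycycline for 4 days to switch the hairpin on. Whether each population was a pool or a clone, and how much glucose the medium held, are not given in the sources used here.

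Txnip, the thioredoxin-interacting protein, binds thioredoxin and also promotes the removal of glucose transporters from the cell surface. The other alpha-arrestins are adaptor proteins that bring ubiquitin ligases of the NEDD4 family to membrane cargo. MondoA (encoded by Mlxip) and its relative ChREBP (encoded by Mlxipl) pair with Mlx, enter the nucleus when glucose phosphates rise, and bind carbohydrate response elements in target genes, of which Txnip and Arrdc4 are the best known. Txnip in turn restrains glucose uptake, which closes a feedback loop.

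The stretches before Txnip and Arrdc4 are shown because these 2 genes are the classic targets of MondoA and stood at opposite ends of expression in these cells. Each line gives the 250 bases before the annotated start site, on the strand of the gene, from RefSeq on GRCm38.p6, which is the mm10 assembly the reads were mapped to. Capitals in the Txnip line mark a FOXO motif (GTAAACA) and the paired half-sites of a carbohydrate response element, and capitals in the Arrdc4 line mark an E box (CACGTG).
Txnip, chr3:96557707-96557956, plus strand: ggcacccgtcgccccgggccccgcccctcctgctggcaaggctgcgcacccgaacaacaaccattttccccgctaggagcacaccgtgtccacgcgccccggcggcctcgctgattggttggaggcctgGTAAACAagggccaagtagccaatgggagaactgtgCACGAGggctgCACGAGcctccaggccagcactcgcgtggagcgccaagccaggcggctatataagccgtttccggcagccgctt
Arrdc4, chr7:68749239-68749488, minus strand: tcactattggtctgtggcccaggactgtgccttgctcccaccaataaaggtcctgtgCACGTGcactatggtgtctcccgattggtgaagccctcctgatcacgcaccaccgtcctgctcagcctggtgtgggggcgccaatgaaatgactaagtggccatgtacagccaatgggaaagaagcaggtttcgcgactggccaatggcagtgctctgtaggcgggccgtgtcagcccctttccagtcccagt

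The carbohydrate response element was searched on both strands as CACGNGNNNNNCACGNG, where N is any base. In Txnip it read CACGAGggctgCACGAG and lay 85 to 69 bases before the start. That pattern was found in 15 of 32851 promoter windows of the same length (0.0457%), and among the 8 members in Txnip only. The FOXO motif, 121 to 115 bases before the start of Txnip, was held by 3.17% of windows, and Txnip was again the only member with it. The E box was held by 6.02% of windows, among them those of Arrdc4, Mlx and, in 1 of its 2 windows, Mlxipl. CCAAT boxes were common, in 33.8% of windows, and all members but Arrdc1 had at least 1. An element farther away lies outside these windows, and a match of letters is not a binding site.

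The members are scattered over the genome. In GENCODE M21 on GRCm38, Txnip (ENSMUSG00000038393.14) lies on chromosome 3 from 96557957 to 96561883, Arrdc1 on chromosome 2 from 24925352 to 24935252, Arrdc2 on chromosome 8 from 70835129 to 70839720, Arrdc3 on chromosome 13 from 80883384 to 80896042 and Arrdc4 on chromosome 7 from 68736995 to 68749241. Mlx lies on chromosome 11 from 101087277 to 101092207. Mlxip (123394798 to 123457932) and Mlxipl (135089890 to 135138382) share chromosome 5 but are not neighbours. All are protein-coding genes.

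Values are TPM, transcripts per 1000000, a level scaled for transcript length and library total, so levels of different genes can be compared while absolute read depth is unknown. Folds are ratios of mean TPM, log2 changes are on the log2(TPM + 1) scale as Urod shRNA minus scrambled, and errors are SD over the libraries of a group. The worth of a single read, read off genes under 0.05 TPM, gave relative depths only. Against Urod shRNA replicate 1, the deepest, the scrambled libraries had 72.9% to 81.9% and the remaining pair 85.7% and 95.6%. Libraries correlated across genes with r from 0.996 to 0.998 within groups and from 0.958 to 0.960 between groups. The labels do not state that replicates are separate cultures, and the spread behind each p-value may be technical only. The hairpin's target fell from 92.4 ± 2.66 to 5.42 ± 0.254 TPM (SD, n = 3 each; limma, adjusted p = 8.22e-09). Other differences between the 2 populations and the loss of Urod cannot be told apart. The mesenchymal filament gene Vim (7812 to 3861 TPM) and the epithelial keratin Krt8 (315 to 459 TPM) were abundant. Other epithelial genes were low, with Krt18 at 0.256 and 0.154 TPM, Krt19 at 0.152 and 0.136 TPM and Epcam falling from 1.96 to 0.943 TPM. The lung epithelial markers Sftpc, Sftpb and Scgb1a1 and the epithelial cadherin Cdh1 stood under 1 TPM in both groups. Differences between the groups were widespread, with 74.7% of 11980 tested genes called (limma on log2(TPM + 1), adjusted p under 0.05), 38.5% upward and 36.2% downward.

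**Figure D1:**
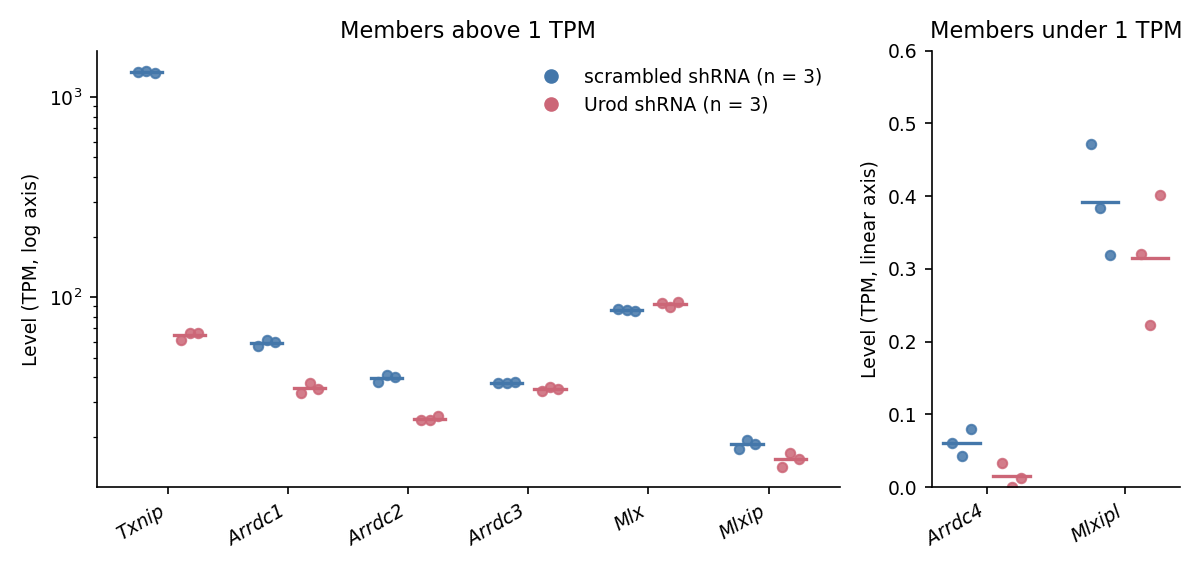
Levels of the 8 members in TPM in each of the 6 libraries, on a log axis for members above 1 TPM and on a linear axis for those under it; points are libraries and horizontal lines are group means (n = 3). Txnip stood between 1326 and 1358 TPM with the scrambled hairpin and between 61.5 and 66.2 TPM with the Urod hairpin, while Mlx, Arrdc3 and Mlxip shifted little.

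Txnip was by far the most abundant member in scrambled cells. Its scrambled libraries held 1333, 1358 and 1326 TPM, and its Urod shRNA libraries 61.5, 66.0 and 66.2 TPM. All 3 Urod shRNA values lay far below all 3 scrambled values, and the libraries of each group lay close together, with coefficients of variation of 1.25% and 4.15%. The mean went from 1339 ± 16.7 to 64.6 ± 2.68 TPM (SD, n = 3 each), a 20.7-fold lower level that leaves 4.82%. Txnip ranked 68th of all named genes by its scrambled mean and 3323rd by its Urod shRNA mean, so it was an ordinary transcript of moderate level after a place among the most abundant. Its share of all TPM went from 0.134% to 0.00646%. In the authors' deposited table Txnip had a log2 fold change of -4.37 and the largest likelihood ratio score of all 19617 rows, and it was the only member in the authors' deposited pathway list of 451 genes. Among the 5990 genes at or above the median level of 28.4 TPM, the next deepest falls were those of Urod itself (17.0-fold lower) and the aldo-keto reductase relative Akr1cl (11.3-fold lower).

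The alpha-arrestin relatives that were well expressed did not share a fall of that size. Arrdc1, a plasma membrane adaptor known for vesicle budding, stood at 57.2, 61.0 and 59.8 TPM in scrambled and at 33.3, 37.4 and 35.0 TPM in Urod shRNA libraries, a mean of 59.4% of the scrambled level. Arrdc2 stood at 37.9, 40.8 and 39.8 TPM against 24.2, 24.3 and 25.5 TPM, or 62.5%. In both genes the groups were separate, and their log2 changes, -0.74 and -0.66 on the log2(TPM + 1) scale, were close to each other and far from the -4.35 of Txnip. Arrdc3, an adaptor known to act on the beta-adrenergic receptor, stood at 37.5, 37.2 and 37.6 TPM against 34.0, 35.7 and 34.9 TPM, or 93.2%. Its groups did not overlap, but the means were close, 37.4 ± 0.202 and 34.9 ± 0.863 TPM (SD, n = 3 each).

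Arrdc4, the closest relative of Txnip in its control by glucose, was nearly silent in both groups. It stood at 0.0600, 0.0426 and 0.0802 TPM in scrambled and at 0.0328, 0 and 0.0128 TPM in Urod shRNA libraries. With relative depth taken into account, these are 4, 3 and 6 against 3, 0 and 1 times the smallest value, all within 0.001 of whole numbers, so they rest on a handful of reads if that smallest value is 1 read. The groups did not overlap in TPM, though scrambled replicate 2 and Urod shRNA replicate 1 both stood at 3 times the smallest value. The authors' deposited table gives Arrdc4 a log2 CPM of -3.21 and a log2 fold change of -1.87. No fold from the TPM values is given here for Arrdc4, which was under the tested level of 1 TPM. Arrdc5, the remaining alpha-arrestin, was as rare, at 0.0344 ± 0.0298 and 0.101 ± 0.0193 TPM (SD, n = 3 each).

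The glucose-sensing factors themselves were nearly level between the groups. Mlx, the shared partner, stood at 87.8, 86.7 and 85.6 TPM in scrambled and at 93.9, 89.8 and 94.9 TPM in Urod shRNA libraries, a mean of 107% of the scrambled level. Mlxip (MondoA) stood at 17.4, 19.3 and 18.4 TPM against 14.1, 16.8 and 15.6 TPM, or 84.2%. In both genes the groups were separate by a narrow margin, and the highest Urod shRNA library of Mlxip lay close under its lowest scrambled library. Mlxipl (ChREBP) stood at 0.472, 0.384 and 0.319 TPM against 0.320, 0.223 and 0.402 TPM, and its groups overlapped. Of the 2 sensors, MondoA was therefore the one with a level above 1 TPM. Transcript levels say nothing of where the MondoA protein was in the cell.

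**Figure D2:**
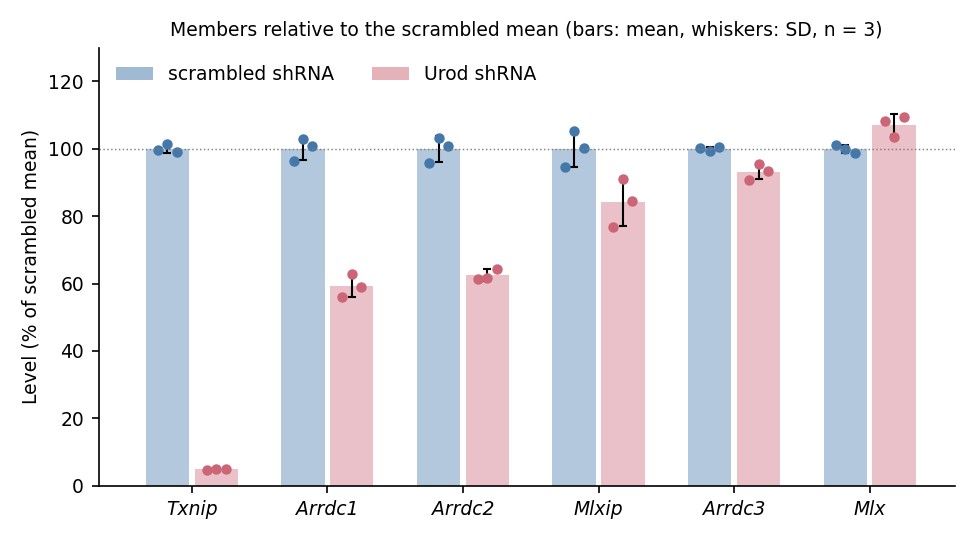
Level of each tested member as a percentage of its scrambled mean; bars are means, whiskers are SD and points are the 3 libraries of each group. Txnip stood at 4.82% with the Urod hairpin, Arrdc1 and Arrdc2 near 60%, Mlxip at 84.2%, Arrdc3 at 93.2% and Mlx at 107%.

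The order of the members changed between the groups. In scrambled cells Txnip led with 15.4 times the level of Mlx, followed by Arrdc1, Arrdc2, Arrdc3, Mlxip, Mlxipl and Arrdc4, and no neighbours in that order had overlapping libraries. In Urod shRNA cells Mlx led, and Txnip stood at 0.696 ± 0.0399 of its level (SD, n = 3). There Arrdc1 and Arrdc3 overlapped (35.2 and 34.9 TPM), and Arrdc2 came after both. Txnip made up 90.8% ± 0.173 of the summed TPM of Txnip and Arrdc1 to Arrdc4 in scrambled cells and 40.5% ± 0.413 in Urod shRNA cells (SD, n = 3 each). The sum of Arrdc1 to Arrdc4 alone went from 136 ± 3.32 to 94.8 ± 2.98 TPM. Mlx outnumbered Mlxip by 4.72 ± 0.288 to 1 in scrambled and by 6.03 ± 0.641 to 1 in Urod shRNA libraries.

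Of the 8 members, 6 had a mean of at least 1 TPM and entered the limma fit over 11980 genes. All 6 were called, 5 lower and 1 higher, where 74.7% of all tested genes were called. Without scrambled replicate 2 only 3 were called, Txnip, Arrdc1 and Arrdc2, while 8262 to 9008 genes were called when any 1 library was left out. Mlx was not called under 7 of the alternatives, among them median-ratio scaling, quantile normalization and rescaling without Hspa5 and Rn45s, and Arrdc3 under 5, each of which left out a library. Txnip alone was at least 2-fold lower, where 4.79% of tested genes were, and no member was at least 2-fold higher, where 2.74% were. Libraries of the 2 groups were fully separate in the 6 tested members, against 77.3% of tested genes (37.5% with Urod shRNA lower). Nothing is read from these counts, since the comparison was used in choosing Txnip.

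The profile nearest to that of Txnip, by the distance between mean-centred log2(TPM + 1) values over the 6 libraries among 11979 other tested genes, was that of Urod (distance 0.629). It was followed by smooth muscle actin Acta2 (0.876), whose near-identical relatives make its value uncertain, the glucocorticoid-activating enzyme gene Hsd11b1 (0.975), the peptide hormone gene Apela (1.15) and the matrix protein gene Prelp (1.20). They stood at 4.28% to 6.68% of their scrambled levels with the Urod hairpin. The lowest share is that of Apela, whose Urod shRNA mean of 0.797 TPM lay under 1 TPM. Apela was among the tested genes only through its scrambled libraries. Hsd11b1 went from 32.7 ± 2.09 to 1.79 ± 0.266 TPM (SD, n = 3 each). Arrdc1 came 1105th and Arrdc2 1345th in that order. With 2 groups this distance mostly follows the size of the fall, which chose Txnip, so the order is a description only.

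Genes around the members were described by whole lists, set beside the shares of all tested genes that rose (38.5%) and fell (36.2%). Other reported targets of ChREBP and MondoA, most of them known from liver, muscle and fat, moved both ways. Of 24 given, 17 were tested, and 10 of these fell while 4 rose. The median log2 change was -0.22, against 0.02 over all tested genes. Klf10, a transcription factor gene induced by glucose, stood at 93.1, 93.7 and 88.9 TPM in scrambled and at 25.5, 24.8 and 25.3 TPM in Urod shRNA libraries. It fell 3.65-fold (limma, adjusted p = 3.73e-08). The malic enzyme gene Me1 fell 2.22-fold (adjusted p = 2.00e-07) and the fructose kinase gene Khk 2.29-fold (adjusted p = 1.74e-06). Lactate dehydrogenase Ldha rose 1.63-fold (1726 ± 16.6 and 2822 ± 6.56 TPM, n = 3 each; limma, adjusted p = 5.01e-07). The fatty acid synthase gene Fasn stood at 75.5 ± 9.97 and 74.4 ± 7.38 TPM (limma, adjusted p = 0.899). Liver-type targets such as Pklr, G6pc and Thrsp were under 0.1 TPM in both groups.

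**Figure D3:**
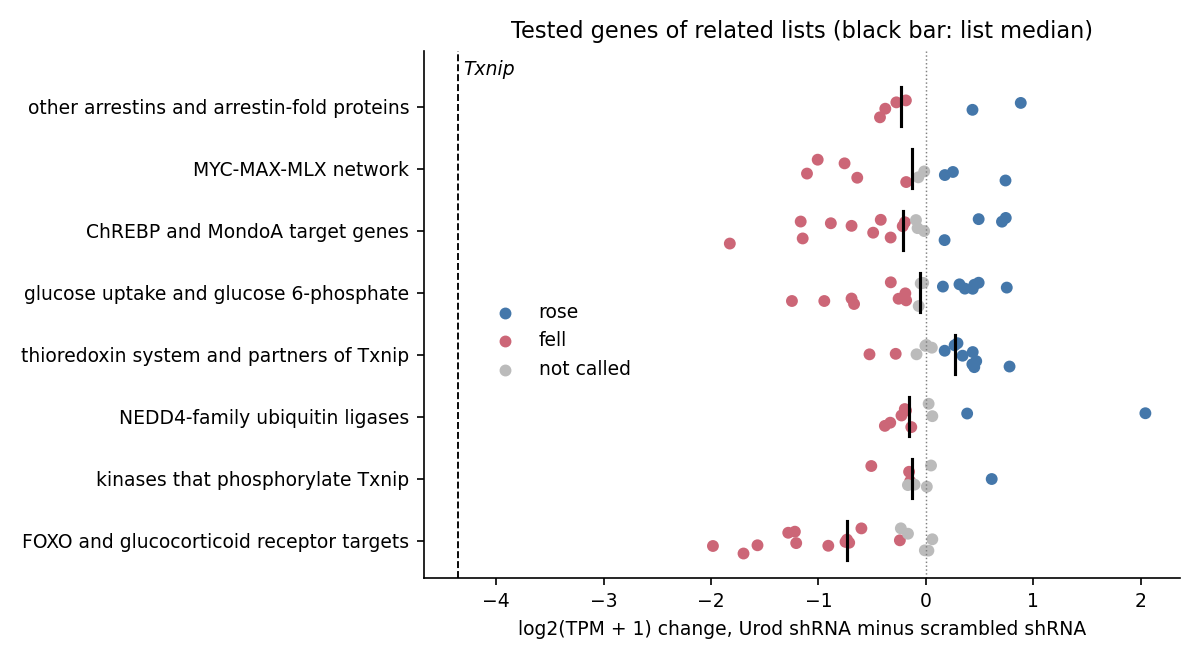
Change of every tested gene of 8 related lists on the log2(TPM + 1) scale, Urod shRNA minus scrambled; each point is a gene, coloured by its limma call, black bars are list medians, and the dashed line marks Txnip at -4.35. The FOXO and glucocorticoid receptor list lies furthest to the left, with a median of -0.73, and the thioredoxin list to the right, with a median of 0.27.

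Glucose transporters split by gene. Slc2a1 (GLUT1), the main transporter of tumour cells and a cargo that Txnip removes from the surface, stood at 155, 166 and 172 TPM in scrambled and at 267, 286 and 280 TPM in Urod shRNA libraries. It rose 1.69-fold (limma, adjusted p = 3.81e-06), and the groups did not overlap. Hk2, the inducible hexokinase that makes glucose 6-phosphate, rose 1.42-fold (39.1 ± 0.879 and 55.4 ± 2.82 TPM, n = 3 each; limma, adjusted p = 3.17e-05). The insulin-responsive Slc2a4 (GLUT4) fell from 6.74 ± 1.06 to 2.25 ± 0.183 TPM and the intracellular Slc2a8 from 43.9 ± 3.38 to 22.3 ± 0.702 TPM. Pfkfb3, which makes an activator of glycolysis, fell 1.64-fold (limma, adjusted p = 1.19e-05), while Tigar, which removes it, rose 1.36-fold under its older name in the table. In all, 7 of 18 tested genes of this list rose and 8 fell, with a median of -0.06. Hk2 and Pfkfb3 are also in the target list above.

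Genes of the thioredoxin system, which Txnip inhibits at the protein level, were largely abundant. Of 15 tested genes of this system and partners of Txnip, 9 rose and 2 fell, with a median of 0.27. Among the 9, Txnl1 (182 and 205 TPM) had overlapping groups and was not called under 8 of the alternatives. Thioredoxin itself, Txn1, stood at 926, 857 and 862 TPM in scrambled and at 1133, 1053 and 1059 TPM in Urod shRNA libraries, a 1.23-fold rise (limma, adjusted p = 0.000496). The mitochondrial Txn2 rose 1.37-fold, the testis-type reductase gene Txnrd3 1.77-fold, the peroxidase gene Prdx2 1.39-fold and the sulfiredoxin gene Srxn1 1.35-fold. The cytosolic reductase gene Txnrd1 (-0.28) and Prdx4 (-0.52), a peroxidase of the endoplasmic reticulum, fell. In scrambled cells there was more Txnip transcript than Txn1 transcript, 1339 against 882 TPM. In Urod shRNA cells Txn1 stood at 1082 TPM against 64.6 TPM of Txnip. Txn1, Ldha and the peroxiredoxins have near-identical copies in the genome, and their values are uncertain, because alignments of low mapping quality were discarded.

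The Mlx factors belong to a wider network around Max, which shares their DNA motif. Myc, the network's growth activator, stood at 1869, 2032 and 2062 TPM in scrambled and at 956, 1019 and 989 TPM in Urod shRNA libraries, a 2.01-fold fall (limma, adjusted p = 1.00e-06). Max, the partner of Myc, rose 1.68-fold (111 ± 1.82 and 187 ± 1.75 TPM, n = 3 each; limma, adjusted p = 3.86e-07). The repressor partners Mxd3, Mxd4 and Mxd1 fell 2.23-fold, 1.72-fold and 1.64-fold. Mxi1 of the same family rose 1.19-fold (69.6 ± 0.502 and 83.0 ± 1.36 TPM, n = 3 each), and Mnt (-0.07) and Mga (-0.02) did not pass. Of 10 tested genes, including the E box factors Usf1 and Usf2, 3 rose and 5 fell.

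Ubiquitin ligases and kinases act on alpha-arrestin proteins. Itch, the ligase that marks Txnip for degradation, fell from 62.2 ± 1.61 to 49.2 ± 1.13 TPM (SD, n = 3 each; limma, adjusted p = 7.20e-05). Of 10 tested members and adaptors of the NEDD4 family, 6 fell and 2 rose. The exception in size was Hecw2, a family member that rose from 0.177 ± 0.0616 to 3.85 ± 0.161 TPM (n = 3 each). Its scrambled mean lay under 1 TPM. It entered the fit only through the Urod shRNA libraries, so its p-value is not given. The count of 2 that rose includes it. Wwp1 fell 1.32-fold and the adaptor gene Ndfip2 rose 1.31-fold. Among subunits of AMPK and the Akt kinases, 3 of 8 tested fell and 1 rose. Akt1 rose 1.53-fold, and the AMPK subunit genes Prkaa1 and Prkag1 fell by 0.15 and 0.16 on the log2 scale.

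Other proteins share the arrestin fold. Of 6 tested, 4 fell and 2 rose. The beta-arrestin gene Arrb2 fell 1.35-fold (79.8 ± 2.82 and 59.0 ± 0.292 TPM, n = 3 each; limma, adjusted p = 1.74e-05), and Dscr3, a subunit of the retriever complex, fell 1.21-fold. The retromer subunit gene Vps26a rose 1.36-fold. Sag, the visual arrestin, rose from 2.85 ± 0.232 to 6.11 ± 0.565 TPM.

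Txnip, Arrdc2 and Arrdc3 are also known to respond to FOXO factors and to glucocorticoids, and the genes listed for these were mostly lower. Of 17 tested, 12 fell and 0 rose in limma, at an adjusted or an unadjusted p under 0.05. Of all tested genes, 36.2% fell and 38.5% rose. The list median was -0.73. The list was chosen with earlier results of these data known, so its count is a description only. The list holds the factors themselves, of which Foxo1 (-0.24) and the glucocorticoid receptor gene Nr3c1 (-0.60) fell and Foxo3 (-0.23) and Foxo4 (-0.01) did not pass. Ccng2, an atypical cyclin under FOXO control, fell 3.04-fold (limma, adjusted p = 5.76e-08), the phosphatase gene Dusp1 3.26-fold (adjusted p = 6.08e-08), the kinase gene Sgk1 2.33-fold (adjusted p = 6.69e-08) and Pik3ip1, an inhibitor of PI3 kinase, 5.46-fold (adjusted p = 4.35e-07). Pik3ip1 stood at 11.5, 9.88 and 10.8 TPM in scrambled and at 1.83, 1.96 and 2.12 TPM in Urod shRNA libraries. Klf9 (0.06) and Fbxo32 (0.02) did not pass.

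Markers of leukocytes and endothelium were given for the same libraries because Txnip is abundant in many cell types. Of 15 given, 5 were tested, 2 rose and 3 fell. The summed level of the 14 found was 118 to 120 TPM in scrambled and 65.5 to 68.1 TPM in Urod shRNA libraries. Most of it was Cd68 (53.2 and 30.8 TPM) and Lyz2 (49.2 and 11.4 TPM). The myeloid gene Cd14 (8.37 and 12.9 TPM) and the endothelial gene Pecam1 (4.74 and 7.37 TPM) rose, while the endothelial gene Vwf (1.49 and 1.06 TPM) fell with Cd68 and Lyz2. The endothelial cadherin Cdh5 was not tested (0.297 and 1.44 TPM). The leukocyte antigen Ptprc (0.0590 and 0.0410 TPM) and the myeloid integrin Itgam (0.0717 and 0.125 TPM) were near 0. In bulk samples, fewer cells of a type and less RNA per cell cannot be told apart. The part of such markers in the values of Txnip was not tested.

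Genes beside Txnip on chromosome 3 were then examined by position, a window chosen with the fall of Txnip known. The counts below stand beside the shares of all tested genes that fell (36.2%) and rose (38.5%). Within 100 kb, 7 protein-coding genes were tested, of which 6 fell and 1 rose. The median log2 change was -0.69, against 0.02 over all tested genes. Hfe2 (hemojuvelin), a regulator of iron balance, was the only tested neighbour before Txnip in that window. It went from 5.26 ± 0.297 to 0.841 ± 0.0997 TPM (n = 3 each). Its Urod shRNA mean lay under 1 TPM. It entered the fit only through the scrambled libraries, so its p-value is not given. The count of 6 that fell and the median include it. The closest tested gene after Txnip, Polr3gl, a subunit of RNA polymerase III, went from 44.9 ± 1.83 to 22.2 ± 0.655 TPM (limma, adjusted p = 8.80e-07). Ankrd34a (-0.70), Lix1l (-0.69) and Itga10 (-0.63) were among the others that fell, and Rbm8a (0.53), part of the exon junction complex, rose. Just outside the window, Ankrd35 went from 2.20 ± 0.154 to 0.805 ± 0.0589 TPM (n = 3 each), and BC107364 (-0.29) did not pass. Ankrd35 too entered the fit only through the scrambled libraries, and the counts of falling genes below include it. Farther out, from 100 to 1000 kb, 16 of 31 tested genes rose and 10 fell, with a median of 0.12. Split by side over the whole 1000 kb, 4 of 15 tested genes after Txnip rose and 8 fell (median -0.25), and 13 of 23 before it rose and 8 fell (median 0.14). The neighbours are not independent replicates, and the difference between the zones was not tested.

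**Figure D4:**
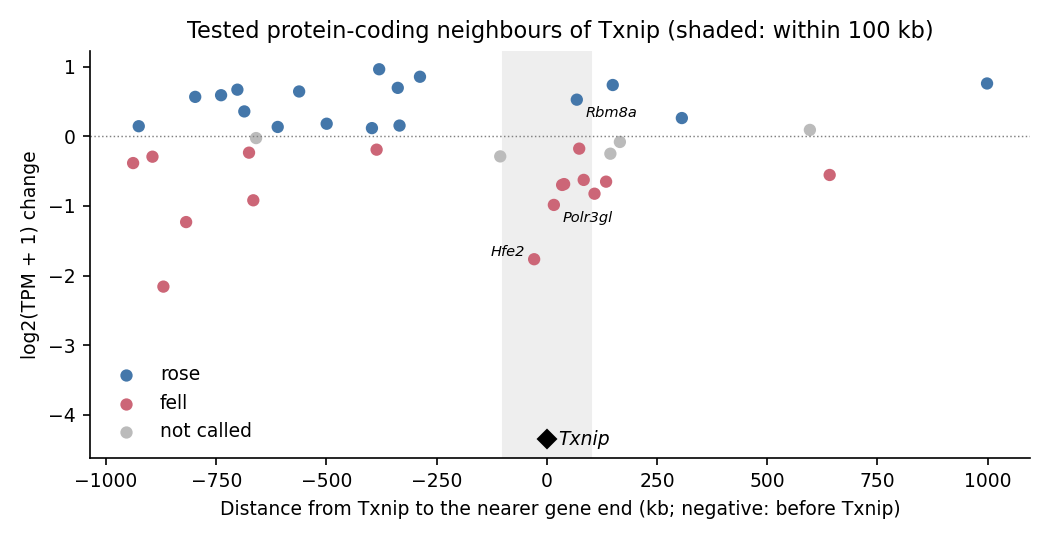
Change on the log2(TPM + 1) scale of the 38 tested protein-coding genes within 1000 kb of Txnip, by distance from Txnip in kb; points are genes coloured by their limma call, the diamond is Txnip and the shaded band is 100 kb to each side. In the band 6 genes fell and only Rbm8a rose, none by as much as Txnip, where 36.2% of all tested genes fell and 38.5% rose. The 6 include Hfe2, which entered the fit only through the scrambled libraries.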

How the data were processed

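The members and lists were chosen with earlier results of these data known. Per the labels' protocols, polyadenylated RNA was sequenced as single-end reads from strand-specific libraries, and alignments of low mapping quality were dropped. The submitters' processing notes name TopHat2, Cufflinks, Cuffdiff 2.1.1 and mm10. The deposited table of libraries, called normalized counts by the authors, sums to 1000000 in each library, so its values were read as TPM. A second deposited table has the authors' own log2 fold change, log2 CPM, likelihood ratio (a score) and p-value for each gene, per the file headers, with no word on the tool.

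Rows with a date in place of a name (27 of 19617) were left out. The 11980 genes whose mean over the 6 libraries reached 1 TPM were tested as log2(TPM + 1), with limma 3.58.1 in R 4.3.3 (variance trend, two-sided, Benjamini-Hochberg adjustment over all tested genes, threshold 0.05). Adding 1 understates the change of low genes. Named genes were Urod, all members, up to 4 genes per list with the smallest adjusted p, a few tied to a member (Itch, Txn1, Slc2a1, Max, Hk2) and the 5 profiles nearest to Txnip. Others, among them Fasn, Slc2a4, Mxd4, Mxi1, Mnt, Mga, Txnrd1, Prdx4, Usf1, Foxo1, Nr3c1, Klf9, Fbxo32, the marker genes and the neighbours of Txnip, were named after their values were seen. Lists were matched through RefSeq synonyms. Promoter windows come from RefSeq on GRCm38.p6, loci from GENCODE M21, and figures from matplotlib 3.10.9 in Python 3.11.15. The pseudocount, filter, scaling and variance trend were varied, a replicate block was added, and each library was left out in turn. Some genes counted in the lists and windows are not reported here by name. TPM keep no counts, so no counting interval is given.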

Additional observations from a re-analysis of the deposited data

How the results depend on the processing

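The log2 change of Txnip was -4.18 with a pseudocount of 10 and -4.31 with quantile normalization, against -4.35, and lay between -4.37 and -4.32 when 1 library was left out. Leaving out 1 library gave 3 to 6 members called (3 to 5 lower), the 3 coming without scrambled replicate 2. No member that was called changed sign under any alternative run. With a filter at 10 TPM, which tests fewer genes, 1 arrestin-fold gene rose, 4 glucose uptake genes fell, 1 NEDD4-family gene rose, 1 leukocyte or endothelial marker rose and 1 carcinoma marker fell. With no filter, 5 leukocyte or endothelial markers and 1 FOXO or glucocorticoid receptor target rose. The replicate numbers of the titles matched the libraries only in part. Correlations of same-numbered deviations were 0.418, 0.214 and 0.0951. Scrambled replicates 1 and 2 were closest to the Urod shRNA replicate of the same number, and scrambled replicate 3 was closer to Urod shRNA replicate 2. A replicate block gave 9882 called genes in place of 8945, and 5 falling kinases in place of 3; the cause was not tested. Depth limits Arrdc4 and Mlxipl, which were too low to compare.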

Other observations

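Outside the members and lists, 13 other genes carried the carbohydrate response element pattern of Txnip in a promoter window of the same length. Of the 14 genes with it, Txnip included, 11 were in the table and 8 were tested, of which 4 fell, 1 rose and 3 did not pass, where 36.2% of all tested genes fell and 38.5% rose. Txnip, chosen for its fall, is 1 of the 4. Beside Txnip, the mannosidase gene Man2b2 fell by 0.46, the ubiquitin ligase adaptor gene Fem1b by 0.25 and Fnip1, a partner of AMPK, by 0.18 on the log2 scale. A430005L14Rik rose by 0.31. The chromatin factor gene Rbbp4 (221 and 218 TPM), Irak1bp1 (34.4 and 32.7 TPM) and Nfkb2 (57.3 and 62.9 TPM) did not pass (limma, adjusted p = 0.673, 0.413 and 0.184). These genes were found by sequence after the fall of Txnip was known.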
